A study of Mus musculus with 12 samples.

Results

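Regulators of DNA methylation and of Polycomb repression were followed through RNA sequencing of hematopoietic stem cells, the cells from which blood is formed. They were chosen as a list of names, and the 10 genes are Dnmt1, Dnmt3a, Dnmt3b, Uhrf1, Tet1, Tet2, Tet3, Ezh1, Ezh2 and Asxl1, out of 35275 genes in the deposited expression table. All 10 were found by their Ensembl identifier and all 10 passed the filter on low values.

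Methyl groups on cytosine are copied onto new DNA by DNMT1, which UHRF1 brings to hemimethylated sites behind the replication fork. DNMT3A and DNMT3B place methyl groups on unmethylated DNA, and the TET enzymes oxidize them as a step towards their removal. Polycomb repressive complex 2 (PRC2) methylates histone H3 at lysine 27 through EZH2 or, as the alternative catalytic subunit, EZH1, and ASXL1 is the partner of the histone H2A deubiquitinase BAP1. In blood, DNMT3A, TET2 and ASXL1 are known from the clones that expand with age in people, and mouse stem cells that lack Dnmt3a are known to self-renew at the expense of differentiation.

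There were 4 groups of 3 libraries, all from C57BL/6 mice. Knockout mice (KO) lacked thrombopoietin, genotype Thpo-/-, and received Romiplostim, an agonist of the thrombopoietin receptor, or were untreated. Wild-type mice (WT), genotype Thpo+/+, likewise received Romiplostim or were untreated. Romiplostim was injected into a vein for 10 days at 100 µg/kg daily, and the protocols name PBS for control mice although their label reads untreated. Mice of genotype Thpo-/- lack the gene in every cell, so stem cells and their surroundings both lacked the cytokine. Values are FPKM, fragments per kilobase of gene and per M fragments of the library, as calculated by the authors, and a level given per length in this way can be set beside that of another gene.

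The libraries held an estimated 27.7 to 35.6 M fragments, and 11262 to 12374 genes reached 1 FPKM. For a 2 kb transcript, a count of 3 fragments equals 0.0422 to 0.0541 FPKM depending on the library, counting error only, so each of the 10 genes lay far above the floor. The estimated number of fragments per gene and library ran between 518 and 946 for Tet2 and between 9628 and 26943 for Ezh2. Thpo itself was listed at 0 in 10 of 12 libraries and reached at most 0.0426 FPKM, so it does not check the genotype labels. The labels do not say that the 3 libraries of a group came from separate mice, and p-values then measure the spread between these samples. Sex-linked genes, given below, differed within both WT groups and, for Xist, within untreated KO, so those libraries were not all repeats of a single sample. Whether some libraries share a source, with a technical spread between them, is not known. The series' design text puts the samples of a group together on 1 run, so run and group cannot be told apart.

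Untreated KO libraries stood apart from the other 3 groups in markers of B cells, macrophages, myeloid cells, mast cells and basophils, and stromal and endothelial cells. The stem cell marker Procr averaged 18.9 ± 2.92 FPKM in untreated KO and 141 ± 10.3 FPKM in untreated WT libraries (SD, n = 3 each). Cd79a, a B cell gene, averaged 792 ± 335 FPKM in untreated KO and 4.95 ± 0.511 FPKM in untreated WT libraries. The macrophage gene C1qb averaged 483 ± 254 FPKM in untreated KO and 16.2 ± 2.52 FPKM in untreated WT libraries. Over the list of 12 B cell markers the summed level ran between 1828 and 4354 FPKM in untreated KO and between 88.2 and 98.7 FPKM in untreated WT libraries. Over the 8 macrophage markers it ran between 1046 and 2968 FPKM in untreated KO and between 87.5 and 91.4 FPKM in untreated WT libraries, and no marker of either list was at 0 in all 3 libraries of these groups. Of the tested markers, 11 of 11 for B cells, 8 of 8 for macrophages, 10 of 12 for myeloid cells and 9 of 12 for erythroid cells rose in untreated KO against untreated WT cells by limma, and 12 of 14 stem cell markers fell. Stromal and endothelial markers rose in 9 of 9, and T and NK cell markers in 10 of 11. Of 7 mast cell and basophil markers 6 rose and 1 fell, and of 8 megakaryocyte markers 0 rose and 3 fell. Over all genes tested, 22.1% were higher and 23% lower. Romiplostim-treated KO libraries had means between those of untreated KO and untreated WT libraries, with Cd79a at 63.5 ± 53.6 FPKM, C1qb at 24.2 ± 8.61 FPKM and Procr at 85.0 ± 36.0 FPKM. However, C1qb in treated KO replicate 1 (15.7 FPKM) lay within the untreated WT libraries (13.3 to 18.0 FPKM). Erythroid markers stayed high in treated KO libraries, with 6 of 12 higher than in treated WT libraries by limma, beside 0.632% of all genes. Treated KO replicate 1 had the highest erythroid level of its group (7.11 as mean log2(FPKM + 1), above 2 of the 3 untreated KO libraries) and the lowest B cell and stem cell levels (2.33 and 4.87). The libraries also differed in sex-linked genes: the mean of 4 Y-linked genes was under 0.04 FPKM in all 3 treated KO libraries and between 11.3 and 24.9 FPKM in all 3 untreated KO libraries, while each WT group held both kinds. Untreated KO replicates 1 and 3 also held Xist, at 4.91 and 8.70 FPKM. A fit with a sex term, which among KO libraries coincides with treatment, is given beside the results that it changed. The part of the marker differences in the results was not tested.

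**Figure D1:**
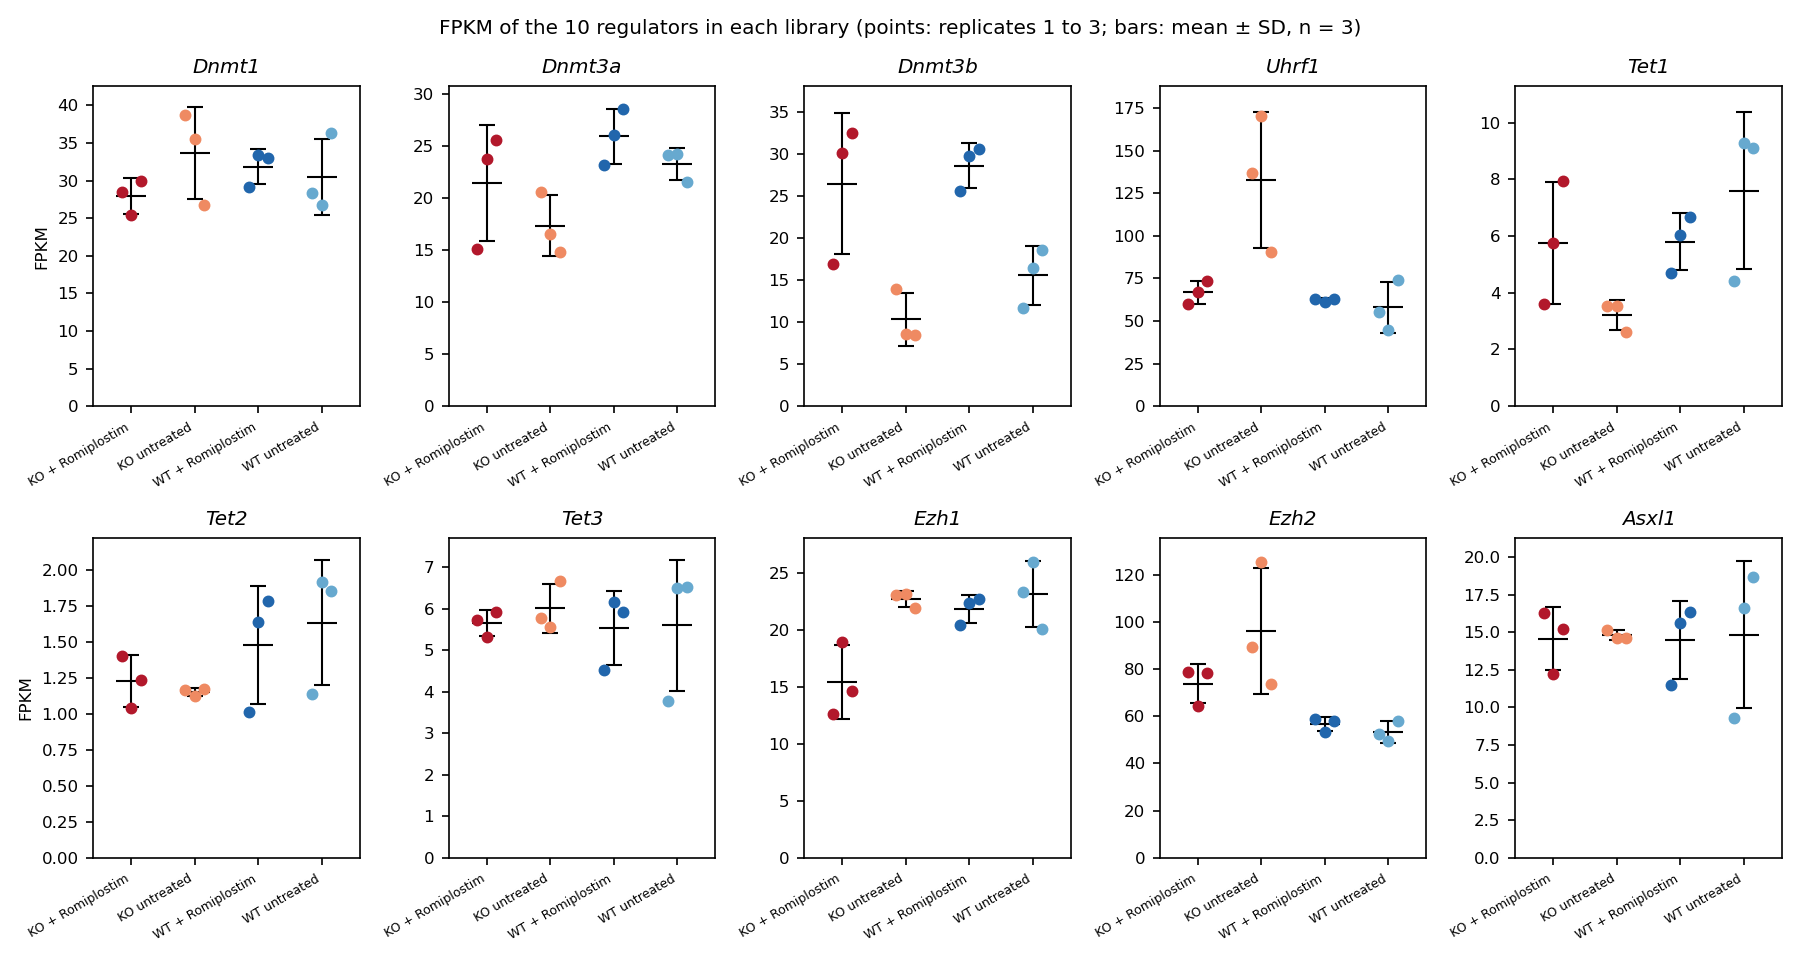
FPKM of each of the 10 genes (vertical axes, each starting at 0 and with its own scale) in the 12 libraries, by group. Points are libraries and bars give the mean ± SD of 3. Uhrf1 is highest in the 3 untreated KO libraries (90.7 to 170.2 FPKM), and Dnmt3b is higher in the 3 treated than in the 3 untreated libraries of either genotype.

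Ordered by level per length, Uhrf1 and Ezh2 held the first and second place in every group and Dnmt1 the third. Tet2 was the lowest of the 10 in every group, at 1.01 to 1.92 FPKM over all libraries. Dnmt3b moved most in this order: it was the fourth in both treated groups, the seventh in untreated KO and the sixth in untreated WT libraries.

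The promoters of the 3 genes at the top of that order shared a sequence feature that the other 7 lacked in the windows searched. In RefSeq promoters of GRCm38.p6, the same build as mm10, all 10 genes were matched, with 15 windows of 250 bases before and 50 bases after a start. The letters known as binding sites of E2F factors, which drive genes of DNA replication (TTTCGCGC, TTTGGCGC, TTTCCCGC or TTTGCCGC on either strand), were found in 1 window each of Uhrf1, Dnmt1 and Ezh2. Of all 32851 promoter windows, 2.26% held them. This share is per window and was not matched for CpG content, while Dnmt1 and Uhrf1 had more than 1 window each. Dnmt1, whose window held such letters at 2 places, did not pass between untreated KO and untreated WT cells (0.14, limma, adjusted p = 0.507). The element CHR (TTTGAA on either strand), found at genes of late cell cycle phases, occurred in 1 window each of Dnmt1, Dnmt3b and Asxl1, and in 17.9% of all windows. Letters of a STAT site (TTCNNNGAA on either strand), the kind of site bound by factors downstream of the thrombopoietin receptor, occurred in 0 of the 10 genes and in 8.30% of all windows. The 3 windows with E2F letters are shown because their genes include the 2 that were higher in untreated KO cells. Each is written 5′ to 3′ on the strand of its gene, with the E2F letters, or their reverse complement where they lie on the opposite strand, in capitals.
Uhrf1 promoter, chr17:56304063-56304312, plus strand: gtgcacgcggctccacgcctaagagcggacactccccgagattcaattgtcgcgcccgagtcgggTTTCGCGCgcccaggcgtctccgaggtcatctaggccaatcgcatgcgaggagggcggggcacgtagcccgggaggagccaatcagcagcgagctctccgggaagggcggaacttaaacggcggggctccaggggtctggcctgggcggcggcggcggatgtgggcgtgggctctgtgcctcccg
Dnmt1 promoter, chr9:20952624-20952873, minus strand: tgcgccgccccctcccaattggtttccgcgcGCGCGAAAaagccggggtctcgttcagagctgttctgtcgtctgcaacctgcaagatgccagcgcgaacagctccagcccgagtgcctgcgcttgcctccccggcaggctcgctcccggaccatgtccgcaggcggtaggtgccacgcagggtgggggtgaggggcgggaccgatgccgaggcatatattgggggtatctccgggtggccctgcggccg
Ezh2 promoter, chr6:47595020-47595269, minus strand: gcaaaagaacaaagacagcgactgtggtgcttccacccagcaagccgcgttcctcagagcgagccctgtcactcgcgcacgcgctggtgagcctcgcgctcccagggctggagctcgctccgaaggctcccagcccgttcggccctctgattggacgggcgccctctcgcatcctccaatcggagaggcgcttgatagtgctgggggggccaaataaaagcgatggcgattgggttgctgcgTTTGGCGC
In the Uhrf1 window the letters began 185 bases before the start, on the strand of the gene. In the Dnmt1 window they lay 219 bases before the start on the opposite strand, and TTTGGCGC occurred again 33 bases after the start, outside the stretch shown. The Ezh2 stretch was taken 11 bases past the start to include its letters, which began 3 bases after it. Dinucleotides CpG numbered 2 to 51 in the 250 bases before the start of the 15 windows, and 14 windows lay above the median of 6 over all promoters. A match of letters is a description of the sequence, and no binding was measured here.

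Uhrf1, the partner that guides DNMT1 to newly replicated DNA, was the most variable of the maintenance pair. It was at 60.0, 67.2 and 73.7 FPKM in treated KO libraries, at 137, 170.2 and 90.7 FPKM in untreated KO libraries, at 62.8, 61.4 and 63.0 FPKM in treated WT libraries and at 55.3, 44.8 and 74.3 FPKM in untreated WT libraries. The 3 untreated KO libraries were above all 9 others, while the other 3 groups overlapped one another. Without treatment Uhrf1 was higher in KO than in WT cells by 1.16 ± 0.22 on the log2 scale (SE; limma, adjusted p = 0.00134). Folds here are differences of log2(FPKM + 1), which understate the change of low genes, and every adjusted p is from limma with Benjamini-Hochberg adjustment over the 12823 genes tested. In KO cells Uhrf1 fell with Romiplostim, with a log2 fold change of -0.93 ± 0.22 (limma, adjusted p = 0.00885). A fit with a sex term gave -0.69 and ended this call (limma, adjusted p = 0.224). In WT cells the difference between treated and untreated libraries was 0.13 ± 0.22 (limma, adjusted p = 0.891). In these bulk samples, fewer cells with the transcript and less of it per cell cannot be told apart.

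The agonist effect on Uhrf1 differed between the genotypes, with an interaction (the effect in KO minus that in WT) of -1.06 ± 0.31 on the log2 scale (limma, adjusted p = 0.0396). With a sex term it was -0.82 (limma, adjusted p = 0.261). This call was the least firm of those on the 10 genes and did not pass under 12 of 22 alternatives. Leaving out 1 library at a time gave adjusted p = 0.0591 without treated KO replicate 1, 0.0604 without treated KO replicate 3, 0.0817 without untreated KO replicate 1 and 0.0822 without untreated KO replicate 2 (limma). Without treated WT replicates 1, 2 or 3 it was 0.0784, 0.0787 or 0.0828, and without untreated WT replicates 1 or 2 it was 0.0650 or 0.0859 (limma). The estimates themselves ran between -1.32 and -0.82 over all alternatives.

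Dnmt1, the maintenance methyltransferase, was steady across the groups. Its 4 group means were 28.0 ± 2.34 FPKM in treated KO, 33.7 ± 6.16 FPKM in untreated KO, 31.9 ± 2.37 FPKM in treated WT and 30.5 ± 5.10 FPKM in untreated WT libraries (SD, n = 3 each). Every pair of neighbours in this order of levels overlapped. The difference between untreated KO and untreated WT cells was 0.14 ± 0.16 on the log2 scale (limma, adjusted p = 0.507), and that between treated and untreated KO cells was -0.25 ± 0.16 (limma, adjusted p = 0.253). Whether its change differed from that of Uhrf1 was not tested.

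Dnmt3b, one of the enzymes that methylate unmarked DNA, was higher after Romiplostim in every library of either genotype. It was at 16.8, 30.02 and 32.5 FPKM in treated KO libraries against 13.96, 8.53 and 8.47 FPKM in untreated KO libraries. In WT mice it was at 25.5, 29.7 and 30.6 FPKM in treated libraries against 11.6, 16.5 and 18.5 FPKM in untreated libraries. Treated and untreated libraries did not overlap within either genotype, and treated KO replicate 1 was the lowest of the treated libraries. In KO cells Dnmt3b rose with Romiplostim by 1.26 ± 0.26 on the log2 scale (limma, adjusted p = 0.00438). A fit with a sex term gave 1.30 ± 0.40 and an adjusted p of 0.0814 by limma. In WT cells the difference was 0.86 ± 0.26 (limma, unadjusted p = 0.00626, adjusted p = 0.140), which did not pass. It passed with library weights (limma, adjusted p = 0.0101), with the WT groups fitted alone (0.0462) and without treated KO replicate 1 (0.0446). The agonist effects in the genotypes differed by 0.40 ± 0.37 (limma, adjusted p = 0.485), so no difference between them was detectable. Untreated KO cells were below untreated WT cells by a log2 difference of -0.56 ± 0.26 (limma, adjusted p = 0.0982), with overlapping libraries. That difference passed without treated KO replicate 1, untreated KO replicate 1 or untreated WT replicate 1 (limma, adjusted p = 0.0409, 0.0391 and 0.0496). It also passed with quantile normalization and with library weights.

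Dnmt3a, the other such enzyme, varied less. It was at 15.1, 23.8 and 25.6 FPKM in treated KO libraries, at 20.6, 16.6 and 14.9 FPKM in untreated KO libraries, at 23.2, 26.04 and 28.5 FPKM in treated WT libraries and at 24.2, 24.2 and 21.5 FPKM in untreated WT libraries. All 3 untreated KO libraries were below all 6 WT libraries, and treated KO replicate 1, the library with the highest erythroid level of its group, lay with the untreated KO libraries. The difference between untreated KO and untreated WT cells was -0.42 ± 0.19 on the log2 scale (limma, adjusted p = 0.0886) and did not pass. It passed with quantile normalization (limma, adjusted p = 0.0137) and without treated KO replicate 1 (0.0233). The same omission moved the difference between treated and untreated KO cells to 0.49 (limma, adjusted p = 0.0286), against 0.27 ± 0.19 with all libraries (adjusted p = 0.294). Quantile normalization also made the latter difference pass. In the order of levels Dnmt3b stood near Dnmt3a in the treated groups, with means of 26.4 and 21.5 FPKM in KO and 28.6 and 25.9 FPKM in WT libraries. In untreated libraries Dnmt3b was the lower of the pair, at 10.3 and 17.4 FPKM in KO and 15.5 and 23.3 FPKM in WT libraries for Dnmt3b and Dnmt3a in that order.

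Among the TET enzymes, Tet1 was the one that passed in the main fit. It was at 3.602, 5.74 and 7.92 FPKM in treated KO libraries, at 3.53, 3.52 and 2.61 FPKM in untreated KO libraries, at 4.70, 6.04 and 6.68 FPKM in treated WT libraries and at 4.40, 9.28 and 9.11 FPKM in untreated WT libraries. The 3 untreated KO libraries were below all 9 others, by a narrow margin for treated KO replicate 1. Without treatment Tet1 was lower in KO than in WT cells, with a log2 fold change of -0.97 ± 0.28 (limma, adjusted p = 0.0144). The call did not pass without untreated WT replicate 2 (limma, adjusted p = 0.0610), without replicate 3 (0.0598) or without untreated KO replicate 3 and treated KO replicate 2 together (0.0566). In KO cells treated libraries were above untreated ones by 0.63 ± 0.28 (limma, adjusted p = 0.107). This passed without treated KO replicate 1 (limma, adjusted p = 0.0326), with quantile normalization and with library weights. The interaction of 0.92 ± 0.40 did not pass (limma, adjusted p = 0.134). It passed without treated KO replicate 1 (limma, adjusted p = 0.0467) or untreated WT replicate 1 (0.0373), and with quantile normalization or library weights.

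Tet2 and Tet3 did not pass in any of the 5 comparisons of the main fit. With library weights, where 7407 of all genes passed, Tet2 passed between untreated KO and untreated WT cells (limma, adjusted p = 0.0376). Tet2 was at 1.41, 1.04 and 1.24 FPKM in treated KO libraries, at 1.17, 1.12 and 1.17 FPKM in untreated KO libraries, at 1.01, 1.64 and 1.78 FPKM in treated WT libraries and at 1.14, 1.92 and 1.85 FPKM in untreated WT libraries. Its difference between untreated KO and untreated WT cells was -0.28 ± 0.17 on the log2 scale (limma, adjusted p = 0.202). Tet3 averaged 5.66 ± 0.311 FPKM in treated KO, 6.01 ± 0.593 FPKM in untreated KO, 5.54 ± 0.888 FPKM in treated WT and 5.60 ± 1.58 FPKM in untreated WT libraries (SD, n = 3 each). Its lowest library was untreated WT replicate 1 at 3.78 FPKM, and the remaining 11 lay between 4.53 and 6.68 FPKM. Tet1, Tet2 and Asxl1 were also lowest of the untreated WT libraries in that replicate. Transcripts of the TET genes and Dnmt3a are long, with 15.5 to 16.9 kb of merged exons. Over the 611 tested genes with more than 12 kb of exons the mean deviation was -0.01 in untreated WT replicate 1, 0.16 in replicate 2 and 0.17 in replicate 3 on the log2 scale. Untreated KO libraries lay at -0.07, -0.05 and -0.11, treated KO at 0.02, -0.13 and 0.08, and treated WT at -0.10, -0.02 and 0.07. Long genes thus ran lower in untreated KO than in untreated WT libraries, the direction of the Tet1 call and of the Dnmt3a and Tet2 differences. Tet3, with 16.7 kb of exons, had the other sign (0.11 ± 0.18, limma, adjusted p = 0.642). The part of the long-gene deviations in the levels of the TET genes and Dnmt3a was not tested.

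Ezh2, the PRC2 methyltransferase typical of dividing cells, was higher in untreated KO cells. It was at 78.5, 64.2 and 78.5 FPKM in treated KO libraries, at 89.4, 125 and 73.6 FPKM in untreated KO libraries, at 58.9, 53.3 and 58.0 FPKM in treated WT libraries and at 52.5, 49.3 and 58.1 FPKM in untreated WT libraries. All 6 KO libraries were above all 6 WT libraries. Ezh2 was higher in untreated KO than in untreated WT cells by 0.81 ± 0.17 on the log2 scale (limma, adjusted p = 0.00266). Under treatment the genotypes differed by 0.37 ± 0.17, which did not pass (limma, adjusted p = 0.259). The difference of treated from untreated KO cells was -0.35 ± 0.17 (limma, adjusted p = 0.142). That difference passed without untreated KO replicate 3 (limma, adjusted p = 0.0357).

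Ezh1, the PRC2 methyltransferase known to prevail in resting cells, changed in a different group. It was at 12.6, 19.0 and 14.7 FPKM in treated KO libraries, at 23.1, 23.1 and 21.9 FPKM in untreated KO libraries, at 20.5, 22.4 and 22.8 FPKM in treated WT libraries and at 23.4, 25.99 and 20.1 FPKM in untreated WT libraries. All 3 treated KO libraries were below all 9 others. In KO cells Ezh1 fell with Romiplostim, with a log2 fold change of -0.55 ± 0.15 (limma, adjusted p = 0.0162). The call did not pass with a sex term (limma, adjusted p = 0.138), with the 2 KO groups fitted alone (0.0740) or without treated KO replicate 3 (0.0548). Untreated KO and untreated WT cells differed by -0.02 ± 0.15 (limma, adjusted p = 0.924). Against treated WT cells the treated KO cells differed by -0.50 ± 0.15 (limma, adjusted p = 0.111), and without treated KO replicate 2 this passed (adjusted p = 0.0176). The interaction of -0.48 ± 0.21 did not pass (limma, adjusted p = 0.138) and passed without that same library (adjusted p = 0.0287). Library weights, or omitting untreated KO replicate 3 and treated KO replicate 2 together, also made the interaction and the difference from treated WT cells pass.

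The ratio of Ezh1 to Ezh2 within a library, which does not depend on the scaling of the library, separated the genotypes. It was 0.161, 0.296 and 0.187 in treated KO libraries and 0.259, 0.185 and 0.298 in untreated KO libraries. In treated WT libraries it was 0.348, 0.421 and 0.392, and in untreated WT libraries 0.446, 0.527 and 0.346. All 6 KO libraries were thus below all 6 WT libraries. The log2 ratio differed by -0.84 between untreated KO and untreated WT libraries and by -0.90 between treated KO and treated WT libraries, each with an exact two-sided permutation p = 0.1, the smallest that 3 libraries against 3 allow. Within a genotype the treated and untreated ratios overlapped, with a log2 difference of -0.23 in KO libraries (exact permutation p = 0.6) and of -0.17 in WT libraries (exact permutation p = 0.5). A ratio shows unequal change of the pair and not which of them changed.

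Asxl1, the partner of the H2A deubiquitinase BAP1, had nearly equal group means of 14.6 ± 2.09 FPKM in treated KO, 14.8 ± 0.314 FPKM in untreated KO, 14.5 ± 2.60 FPKM in treated WT and 14.8 ± 4.92 FPKM in untreated WT libraries (SD, n = 3 each). Its spread was widest in untreated WT libraries, at 9.29, 16.6 and 18.6 FPKM. The 4 differences between groups ran between -0.03 and 0.05 on the log2 scale, with an SE of 0.22 and an adjusted p by limma of 0.869 to 0.999. Asxl1 overlaps 2500004C02Rik on the opposite strand, listed at a mean of 7.03 FPKM beside 14.7 FPKM for Asxl1. The library kit does not mark strand, so reads from the overlap of such a pair cannot be told apart. The opposite-strand genes that overlap Dnmt3a, Dnmt3b, Tet3 and Ezh2 reached at most 0.142, 1.48, 0.231 and 0.271 FPKM.

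**Figure D2:**
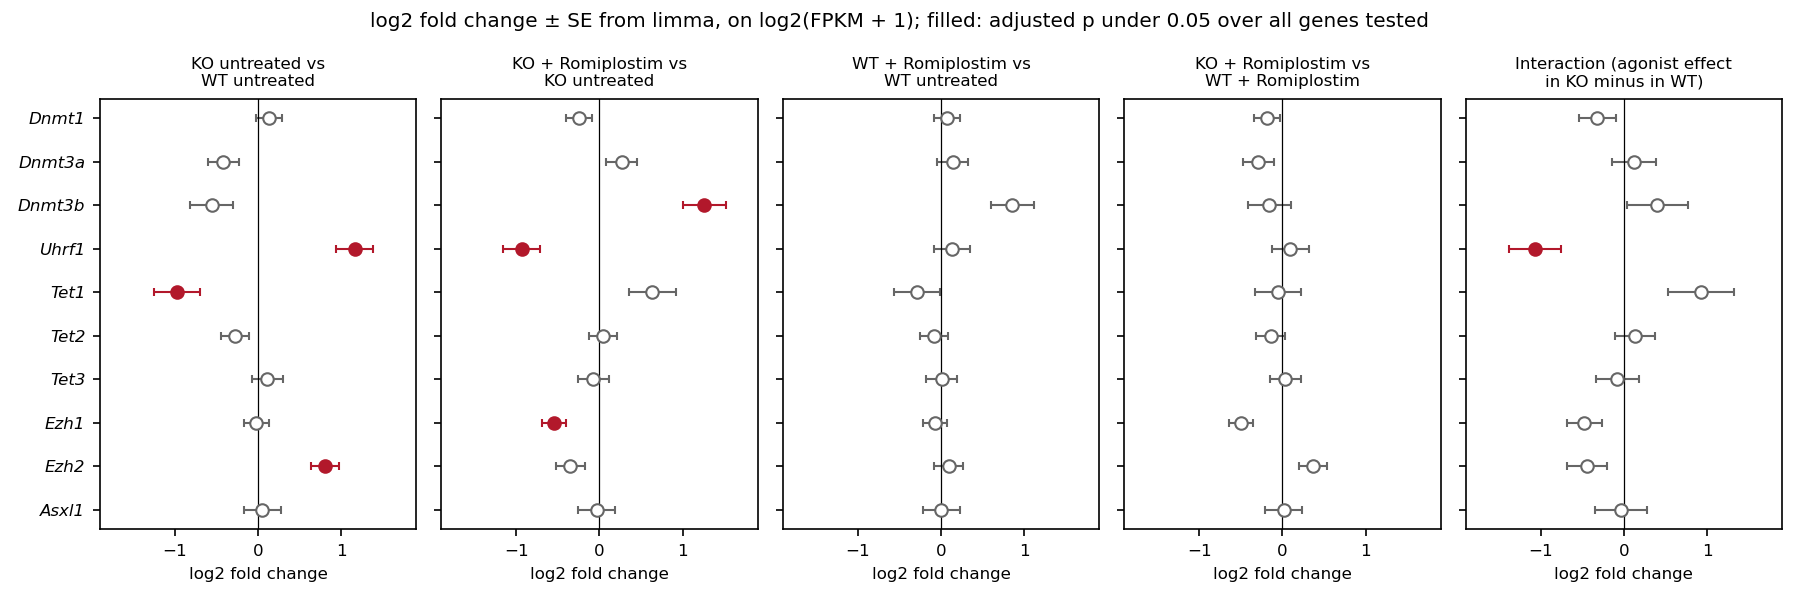
log2 fold change ± SE by limma on log2(FPKM + 1) for the 10 genes (rows) in the 5 comparisons (panels), with filled points where the adjusted p over all genes was under 0.05. Filled points are Uhrf1, Ezh2 and Tet1 for untreated KO against untreated WT, Dnmt3b, Uhrf1 and Ezh1 for Romiplostim in KO, and Uhrf1 for the interaction.

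The counts were read against the shares over all genes tested. Between untreated KO and untreated WT cells 2 of the 10 rose and 1 fell, while 45.1% of all genes tested passed, with 22.1% higher and 23% lower. At an unadjusted p under 0.05 it was 4 of the 10 against 52.9% of all genes. The libraries of these groups did not overlap for 4 of the 10, namely Uhrf1, Ezh2, Tet1 and Dnmt3a, against 56.3% of all genes. The median absolute log2 fold change was 0.35 over the 10 and 0.42 over all genes. For treated against untreated KO cells 1 rose and 2 fell, which is near the 29.6% of all genes that passed, with 10.7% higher and 18.9% lower. At an unadjusted p under 0.05 it was 4 of the 10 against 42.1%, and 4 of the 10 did not overlap, Tet1 among them, against 40.3%. For Romiplostim in WT cells 0 of the 10 passed by limma and 1 (Dnmt3b) had an unadjusted p under 0.05, while 1.84% of all genes passed and 13.3% had such a p. Dnmt3b was also the 1 gene of the 10 whose treated and untreated WT libraries did not overlap, against 26.8% of all genes. Between treated KO and treated WT cells 0 passed by limma and 1 (Ezh1) had an unadjusted p under 0.05, while 1.37% of all genes passed and 19.8% had such a p. In that comparison 2 of the 10 (Ezh1 and Ezh2) did not overlap, against 25.1%. The interaction passed for 1 of the 10, Uhrf1, in the lower direction, against 15.6% of all genes, with 5.53% higher and 10% lower. An unadjusted p under 0.05 was found for 3 of the 10 against 31.8% of all genes. Comparisons that share a group are not independent of one another: the untreated KO libraries enter both the genotype and the agonist comparison of KO cells.

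Genes of the cell cycle moved in the direction of Uhrf1 and Ezh2 in the genotype comparison without treatment and in the agonist comparison of KO cells. Of 30 listed cell cycle genes, which do not include any of the 10, 23 rose and 0 fell in untreated KO against untreated WT cells, beside 22.1% and 23% of all genes. In treated against untreated KO cells 0 rose and 16 fell, beside 10.7% and 18.9% of all genes, and with a sex term 0 rose and 1 fell. With Romiplostim in WT cells 5 rose and 0 fell, beside 0.866% and 0.975% of all genes, and a sex term gave the same counts. Uhrf1 (0.13) and Ezh2 (0.09) did not pass in WT cells (limma, adjusted p = 0.891 and 0.904). The mean level of this list was 6.32 ± 0.10 in treated KO, 6.91 ± 0.27 in untreated KO, 6.12 ± 0.11 in treated WT and 5.76 ± 0.23 in untreated WT libraries (mean log2(FPKM + 1); SD, n = 3 each). Over the 12 libraries Pearson's r with that level was 0.92 for Uhrf1, 0.92 for Ezh2, 0.42 for Dnmt1, -0.61 for Dnmt3a, -0.71 for Tet1 and -0.12 for Ezh1. These r values are descriptions over 12 libraries in 4 groups that share their scaling. Within untreated KO libraries, replicate 2 was highest and replicate 3 lowest in the cell cycle level (7.11 and 6.61), in Uhrf1 and in Ezh2. The part of dividing cells, or of other cell types, in the levels of Uhrf1 and Ezh2 was not tested.

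**Figure D3:**
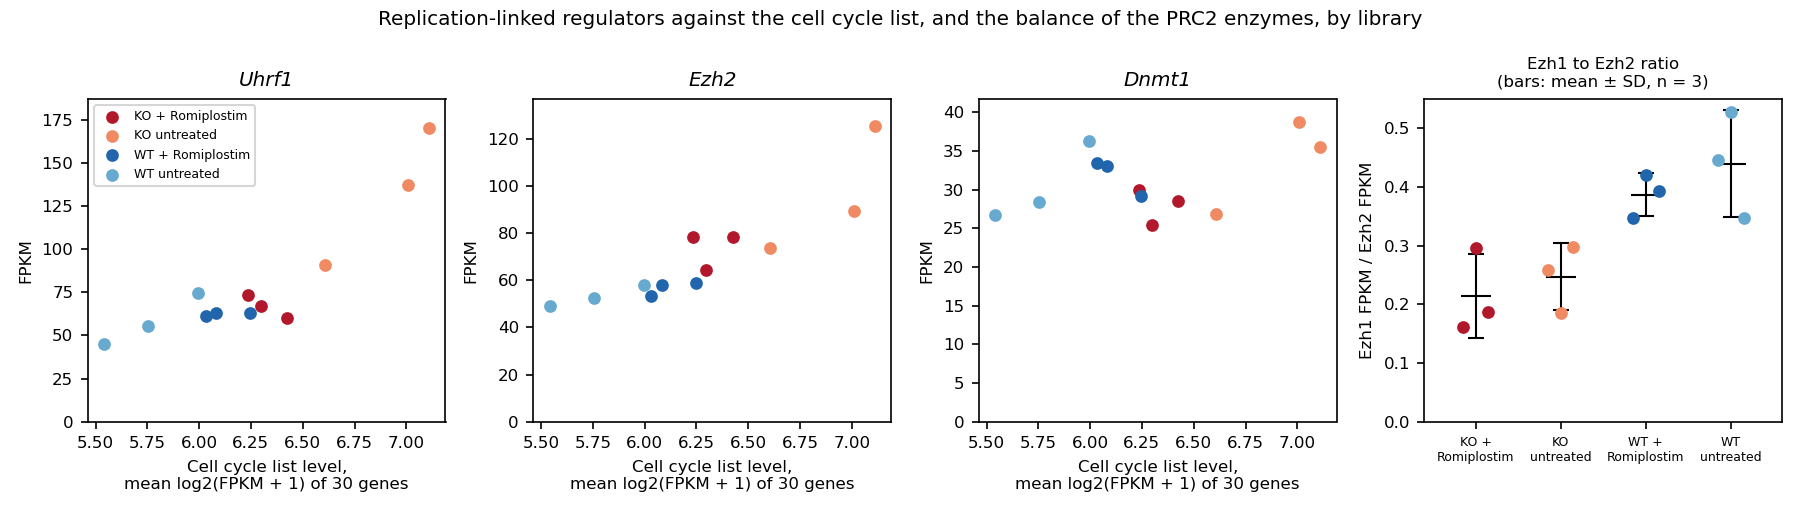
FPKM of Uhrf1, Ezh2 and Dnmt1 (vertical axes) against the mean log2(FPKM + 1) of 30 cell cycle genes in each of 12 libraries, and, at the right, the ratio of Ezh1 to Ezh2 FPKM by library with mean ± SD of 3. The untreated KO libraries lie at the upper right for Uhrf1 and Ezh2, and all 6 KO libraries lie below all 6 WT libraries in the ratio (0.298 and below, against 0.346 and above).

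The rest of the machinery was described by 6 lists of 72 other genes, of which 71 were in the table and 67 were tested. Of the 67, 10 rose and 7 fell in untreated KO against untreated WT cells (25.4%, beside 45.1% of all genes), and 1 rose and 10 fell with Romiplostim in KO cells (16.4%, beside 29.6%). With a sex term 0 rose and 1 fell, Phc2, in that KO comparison. With Romiplostim in WT cells 0 rose and 1 fell (1.49%, beside 1.84%), and between treated KO and treated WT cells 0 passed by limma (beside 1.37%). The interaction passed for 1 higher and 5 lower (8.96%, beside 15.6%), and for 0 with a sex term. The list counts below for untreated KO against untreated WT stand beside 22.1% higher and 23% lower of all genes. Those for Romiplostim in KO cells stand beside 10.7% and 18.9%, and those for the interaction beside 5.53% and 10%. In the lists below, a call with no limit beside it passed under every alternative in which its gene was tested.

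Of 14 tested partners and readers of DNA methylation, 3 rose and 1 fell in untreated KO against untreated WT cells. Mbd2, which binds methylated DNA, averaged 149 ± 6.15 FPKM in untreated KO and 66.4 ± 4.37 FPKM in untreated WT libraries (log2 fold change 1.16 ± 0.17, limma, adjusted p = 0.000223). Zbtb38, a zinc finger protein that binds methylated DNA, averaged 19.3 ± 1.56 FPKM in untreated KO and 37.8 ± 3.81 FPKM in untreated WT libraries (-0.93 ± 0.13, limma, adjusted p = 0.000172). The other risers were Ahcy (0.48), which clears the by-product of methyl transfer, and Usp7 (0.40), a deubiquitinase that acts on UHRF1 and DNMT1. Ahcy did not pass without untreated KO replicate 1 (limma, adjusted p = 0.0604), and Usp7 did not pass under 15 of 23 alternatives (limma, adjusted p up to 0.176). Zbtb38 was also the 1 gene of all 67 that passed for Romiplostim in WT cells, at 25.1 ± 1.91 FPKM in treated and 37.8 ± 3.81 FPKM in untreated libraries (-0.57 ± 0.13, limma, adjusted p = 0.0457). In KO cells it moved the other way, at 25.7 ± 3.27 FPKM in treated and 19.3 ± 1.56 FPKM in untreated libraries (0.39 ± 0.13, limma, adjusted p = 0.0375), and its interaction was 0.96 ± 0.18 (limma, adjusted p = 0.00661). The WT call was lost under 14 of 23 alternatives, among them the omission of any 1 WT or untreated KO library (limma, adjusted p up to 0.195), and the KO call under 10 of 23 (up to 0.294). The interaction was lost under 1 of 22, the fit with a sex term (limma, adjusted p = 0.0661). Mat2a, which makes the methyl donor, fell with Romiplostim in KO cells (-0.43, limma, adjusted p = 0.0384), and did not pass under 10 of 23 alternatives, the sex term included (up to 0.629). Its difference in WT cells was of like size but did not pass (-0.44, limma, adjusted p = 0.175). The interaction of Mat2a was 0.006 (limma, adjusted p = 0.989).

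Of 10 tested partners of DNA demethylation, 3 rose and 1 fell in untreated KO against untreated WT cells. Tdg, the glycosylase that excises oxidized methylcytosine, averaged 102 ± 20.5 FPKM in untreated KO and 44.3 ± 8.77 FPKM in untreated WT libraries (1.18 ± 0.17, limma, adjusted p = 0.000269). Mbd4 (0.48), another glycosylase, and Idh1 (0.56), which makes the cofactor of the TET enzymes, rose as well, and Apex1 (-0.58), a nuclease of base excision repair, fell. With Romiplostim in KO cells Tdg (-0.69) and Idh1 (-0.80) fell, and the interaction passed for Tdg (-0.94, limma, adjusted p = 0.0254) and Mbd4 (-0.69, 0.0482). Without treatment, the Mbd4 call was lost under 4 of 23 alternatives, the omission of untreated KO replicate 1 or 2 or of untreated WT replicate 2 or 3 (limma, adjusted p up to 0.0723), and the Idh1 call under 13 of 23 (up to 0.144). In KO cells a sex term ended both falls; Tdg was also lost without treated KO replicate 3 or untreated KO replicate 1 (limma, adjusted p up to 0.217), and Idh1 without untreated KO replicate 1 or 2 and with the KO groups fitted alone (up to 0.119). The interactions of Tdg and Mbd4 were lost under 9 and 15 of 22 alternatives (limma, adjusted p up to 0.173 and 0.155).

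Of 11 tested core and accessory subunits of PRC2, 1 rose and 1 fell in untreated KO against untreated WT cells. Suz12, a core subunit, averaged 18.7 ± 2.73 FPKM in untreated KO and 13.6 ± 1.53 FPKM in untreated WT libraries (0.43 ± 0.14, limma, adjusted p = 0.0291). Lcor, which encodes an accessory subunit, had a log2 fold change of -0.43 ± 0.14 (limma, adjusted p = 0.0264). The other 9 did not pass there. Phf1, an accessory subunit, fell with Romiplostim in KO cells, at 2.53 ± 1.22 FPKM in treated and 5.66 ± 2.32 FPKM in untreated libraries (-0.92 ± 0.29, limma, adjusted p = 0.0317). The Suz12 call was lost under 7 of 23 alternatives, the Lcor call under 7 of 22 and the Phf1 call under 6 of 23, the sex term included for Suz12 and Phf1 (limma, adjusted p up to 0.121, 0.116 and 0.199).

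PRC1, which ubiquitinates histone H2A, was tested in 21 subunits, of which 1 rose and 3 fell in untreated KO against untreated WT cells. Phc2 averaged 56.6 ± 1.12 FPKM in untreated KO and 33.9 ± 1.82 FPKM in untreated WT libraries (0.72 ± 0.13, limma, adjusted p = 0.00104), while its paralog Phc1 fell (-0.66 ± 0.24, limma, adjusted p = 0.0388). Pcgf2 (-0.64) and Cbx6 (-0.91) were the other subunits that fell. Pcgf2 averaged 0.579 ± 0.0452 FPKM in untreated KO and 1.47 ± 0.275 FPKM in untreated WT libraries. Every KO library was under 1 FPKM for Pcgf2, so it passed the filter on low values only through WT libraries. Its place among the genes tested in the main fit thus rests on the group where it is high, and Pcgf2 was not tested with the filter at 5 FPKM. With no filter the call still passed, with an adjusted p by limma of at most 0.0171 over 22 alternatives. Its KO values lie under the pseudocount of 1. With Romiplostim in KO cells 0 of the 21 rose and 4 fell, beside 10.7% higher and 18.9% lower of all genes. Phc2 (-0.82), Scmh1 (-0.53) and Cbx2 (-0.70) were among those that fell. The interaction passed for Phc2 (-0.89, limma, adjusted p = 0.0110) and Cbx2 (-1.12, 0.0458). The Phc1 call was lost under 9 of 23 alternatives (limma, adjusted p up to 0.137). In KO cells Scmh1 was lost under 12 and Cbx2 under 14 of 23 (limma, adjusted p up to 0.180 and 0.278), the sex term included, while Phc2 passed under all 23. The interaction of Cbx2 was lost under 12 of 22 (up to 0.187), and that of Phc2 under 1, the sex term (limma, adjusted p = 0.0673).

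Around BAP1, the deubiquitinase that Asxl1 partners, 2 of 9 tested genes rose and 1 fell in untreated KO against untreated WT cells. Bap1 itself averaged 50.1 ± 7.67 FPKM in treated KO, 83.5 ± 13.3 FPKM in untreated KO, 57.7 ± 1.82 FPKM in treated WT and 59.3 ± 0.885 FPKM in untreated WT libraries (SD, n = 3 each). It rose in untreated KO against untreated WT cells (0.47 ± 0.14, limma, adjusted p = 0.0150) and fell with Romiplostim in KO cells (-0.72 ± 0.14, limma, adjusted p = 0.00289), with an interaction of -0.68 (limma, adjusted p = 0.0360). Kdm1b, a histone demethylase, moved likewise (0.44 and -0.72), and Mbd6 fell in untreated KO against untreated WT cells (-0.89). Without treatment the Bap1 call was lost without untreated KO replicate 1 or 2 (limma, adjusted p up to 0.0636) and the Kdm1b call under 6 of 23 alternatives (up to 0.0944). In KO cells both falls were lost with a sex term, at an adjusted p by limma of 0.0786 for Bap1 and 0.0867 for Kdm1b. The Bap1 interaction was lost under 11 of 22 alternatives (limma, adjusted p up to 0.175). The 2 H3K27 demethylases, Kdm6a and Kdm6b, did not pass in any comparison. The markers of other cells given above differed between the same groups, and their part in the calls of these lists was not tested.

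**Figure D4:**
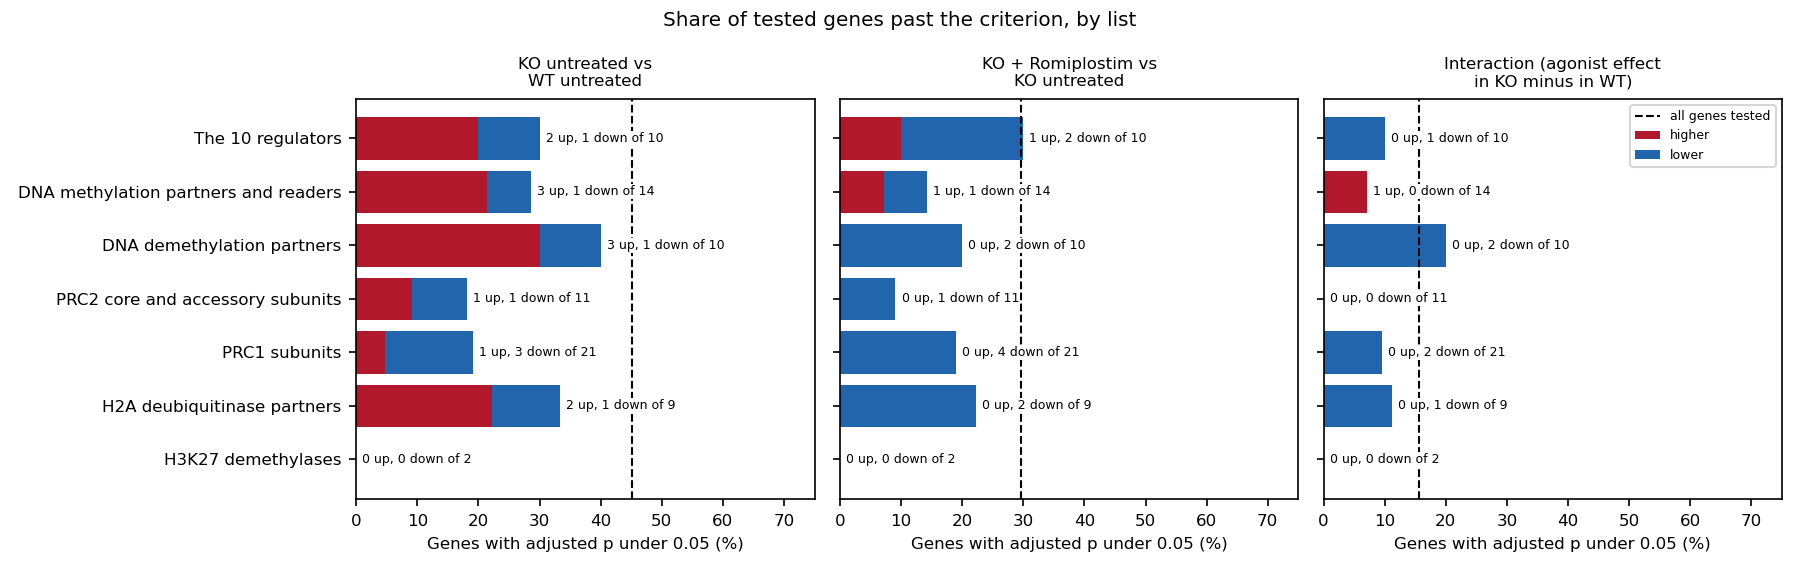
Share of tested genes with an adjusted p under 0.05 (horizontal axis, percent; red higher, blue lower) for the 10 regulators and the 6 lists, with the share over all 12823 genes as a dashed line. For untreated KO against untreated WT every list lies below the 45.1% of all genes. In the interaction the DNA demethylation list, with 2 of 10, lies near the 15.6% of all genes, on its upper side. Its calls, Tdg and Mbd4, were lost under 9 and 15 of 22 alternatives, and with a sex term 0 of the 10 passed.

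By likeness of pattern, the genes nearest to Uhrf1 over the 12 libraries were Tmpo (Pearson's r = 0.98), Tedc1 (0.98) and Haspin (0.96), of 8388 tested genes with a mean of at least 5 FPKM. Nearest to Ezh2 were Plk4 (0.97), Smc4 (0.97) and Cdv3 (0.93). Nearest to Dnmt3b were Zfp760 (0.94), Desi2 (0.93) and Kyat3 (0.92), and nearest to Dnmt3a were Prkch (0.93), Slc7a6 (0.93) and Clstn3 (0.92). For Tet1 they were Lpar5 (0.97), Atp2b4 (0.96) and Slc23a2 (0.94), for Tet2 Mast4 (0.93), Rnf44 (0.92) and Zfp236 (0.92), and for Ezh1 Zfyve27 (0.95), Tspyl2 (0.94) and Prickle3 (0.93). Dnmt1 had the least close neighbours, Sf3b2 (0.87), Nsd2 (0.86) and Cspp1 (0.86). Nearest to Tet3 were Aff1 (0.94), Arih1 (0.92) and Asxl1 (0.91), and nearest to Asxl1 were Prkcsh (0.95), Gnl3l (0.95) and Arih1 (0.93). Among the 10 genes themselves the closest pairs were Tet3 with Asxl1 (0.91), Uhrf1 with Ezh2 (0.89) and Dnmt3a with Dnmt3b (0.74). These values describe 12 libraries that share their scaling, with no test.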

How the data were processed

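RNA was measured in 12 libraries of sorted hematopoietic stem cells, 4 groups of 3, from cDNA made with the SMARTer Ultra Low kit, per the labels' protocols, which keeps no strand information. FPKM values per gene were calculated by the authors and deposited as 1 table. The submitters' processing notes list TopHat2, Cufflinks 2.2.1 and mm10 and give no roles.

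Identifiers were matched to symbols and positions of GENCODE M21 on the same build, which 34490 of 35275 had. Genes with at least 1 FPKM in at least 3 libraries were tested (12823). With limma 3.58.1 in R 4.3.3, a mean of log2(FPKM + 1) was fitted per group over all 12 libraries, with an intensity trend, two-sided, and Benjamini-Hochberg adjustment within each of 5 comparisons at an adjusted p of 0.05. The fit was tested on simulated data. The Ezh1 to Ezh2 ratio was compared by an exact permutation test in SciPy 1.17.1. No 2 library columns were identical. Depth was estimated from the steps between low FPKM values and the merged exon length, where 51.8% to 56.5% of values of under 25 fragments were whole within 0.05, so it is an approximation. Amplified reads carry no molecular identifiers. In Cufflinks-type gene values, paralogs and overlapping genes may share reads.

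All 10 genes were named in every comparison. Of each of 6 other lists, at most 4 genes with the smallest p among those that passed were named per comparison, and for likeness the 3 genes with the highest r. A gene that this rule names is not reported here, although it stayed in every fit and count. The genes and lists were chosen with earlier results of these data known. Alternatives changed the pseudocount, filter, scaling, trend, library weights, libraries fitted, used the replicate number as a block term, or omitted single libraries. A sex term and a fit without untreated KO replicate 3 and treated KO replicate 2 were added after seeing the data.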

Additional observations from a re-analysis of the deposited data

Results flagged for a closer look

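Uhrf1 was singled out because its response to Romiplostim differed between the genotypes by the interaction test. The agonist effect in KO minus that in WT cells was -1.06 ± 0.31 on the log2 scale (limma, adjusted p = 0.0396). This call is not firm: it did not pass under 12 of 22 alternatives. Among these was the sex term (limma, adjusted p = 0.261), which coincides with treatment among KO libraries. Of all genes tested, 15.6% passed the interaction. Uhrf1 averaged 66.96 ± 6.85 FPKM in treated KO and 133 ± 40.0 FPKM in untreated KO libraries, and 62.4 ± 0.866 FPKM in treated WT and 58.1 ± 14.98 FPKM in untreated WT libraries (SD, n = 3 each). All 3 treated KO libraries were below all 3 untreated KO libraries, while treated and untreated WT libraries overlapped.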

How the results depend on the processing

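Across 23 alternatives no call on the 10 genes reversed its direction. Uhrf1 and Ezh2 in untreated KO against untreated WT cells passed under all of them, with the highest adjusted p by limma at 0.00894 and 0.0123. With quantile normalization 5 of the 10 genes passed in that comparison, beside 6360 of all 12823 genes tested. With library weights 5 of the 10 passed, beside 7407 of all genes. For treated against untreated KO cells 5 passed with quantile normalization, beside 4240 of all genes. With a sex term 0 passed, where the term coincides with treatment among KO libraries. For Romiplostim in WT cells 1 passed with library weights and 1 with the compared groups fitted alone. Between treated KO and treated WT cells 1 passed with library weights and 1 without untreated KO replicate 3 and treated KO replicate 2. The interaction passed for 0 genes without a filter and for 2 with quantile normalization, beside 2585 of all genes. It passed for 3 with library weights, for 0 with a sex term and for 2 without those libraries. Leaving out each library in turn gave 2 to 5 genes in the genotype comparison without treatment and 2 to 5 in treated against untreated KO cells. It gave 0 to 1 in WT cells, 0 to 1 between the treated groups and 0 to 2 in the interaction. The cause was not tested. The 5 in the genotype comparison were reached without treated KO replicate 1, where 6309 of all genes passed. Totals over all genes in the other comparisons follow.

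Over all genes, treated against untreated KO cells gave 3797 calls, 770 with a sex term, 2021 with the compared groups alone and 2368 to 4308 with a library left out. In WT cells there were 236 calls, 122 with a filter at 5 FPKM, 1755 with library weights, 438 without untreated KO replicate 3 and treated KO replicate 2, 628 with the compared groups alone and 65 to 469 with a library left out. Between the treated groups there were 176 calls, 326 with a pseudocount of 0.1, 57 without a filter, 270 with quantile normalization, 1712 with library weights, 28 with a sex term, 1712 without those same 2 libraries, 57 with the compared groups alone and 31 to 1559 with a library left out. The interaction gave 1996 calls, 4671 with library weights, 261 with a sex term and 1088 to 2687 with a library left out. Quantile normalization moved the share of higher calls in treated against untreated KO cells to 58.2%, against 36.3%, and in the interaction to 55.5%, against 35.5%.

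Whether replicate numbers pair the libraries is not stated, and these correlations do not settle it. The 18 same-numbered pairs had deviations correlated at r = -0.19 to 0.40, 6 of them above 0.1. Their median was 0.025, against -0.029 for the other pairs, and 6 of 12 libraries correlated best with their own number. With the replicate number as a block 3, 3, 0 and 0 of the 10 genes passed in the first 4 comparisons, as without it, and 0 passed in the interaction.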
